A study of Mus musculus with 4 samples.

Results

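The 10 genes Il1a, Il1b, Il1rn, Il1rap, Il18, Il18bp, Nlrp3, Pycard, Casp1 and Casp4 encode interleukin-1 family cytokines, proteins that bind or oppose them, and the core parts of the inflammasome. They were taken by name: every probe set whose platform annotation gives 1 of these symbols alone was included, which came to 18 probe sets of the 45101 on the array, or 10 of 18193 measured genes. Each probe set combines several short oligonucleotides that hybridise to 1 or more transcripts, in most cases of 1 gene. The annotation named all 18 by the current symbols, and no probe set that names several genes held 1 of these symbols.

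RNA was measured in cultures of bone marrow-derived macrophages, which were differentiated from marrow precursors for 5 days with supernatant of L929 cells, which secrete the growth factor M-CSF. The groups were DKO cells with LPS, DKO cells left untreated, WT cells with LPS and WT cells left untreated, with 1 array each. DKO cells carry knockouts of both Hes1 and Hey1, which encode transcriptional repressors of the basic helix-loop-helix class and are induced by Notch receptors, and WT cells are wild type. All cells are on the C57BL/6 background, and LPS, the bacterial ligand of the receptor TLR4, was given at 2 ng/ml for 3 h. How the alleles were removed, whether in all cells or by a Cre line, and the age and number of the animals behind each array are not given in the sources used here. The study asked which inflammatory genes in macrophages depend on Hes1 and Hey1. With 1 array per group there is no replicate check, no error and no p-value for any difference below, and the number of arrays limits the precision.

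Interleukin-1 signalling in macrophages is known to be controlled in steps. A microbial signal such as LPS induces the genes of the cytokine precursors and of the sensor NLRP3, which is called priming. An inflammasome then forms from a sensor, the adaptor ASC (gene Pycard) and the protease caspase-1 (Casp1), which cleaves the precursors of interleukins 1 beta and 18, while the protease encoded by Casp4 in mice binds LPS inside the cell and opens gasdermin D pores. Outside the cell, the receptor antagonist (Il1rn) and the interleukin-18 binding protein (Il18bp) oppose the cytokines, and the accessory chain Il1rap is shared by the receptors of several family members. Arrays read RNA and not cleavage or release.

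The bases before the transcript start are shown for the 4 genes that were higher with LPS in both genotypes (Il1b, Il1a, Nlrp3 and Casp4), for Pycard, whose RNA stood near the same level on both WT arrays, and for Il1rap, which held the most matches to a binding sequence of the HES family. They are RefSeq sequences of build GRCm38.p6, each the 250 bases before the start given first along the gene, 5′ to 3′, with matches to the 6 motifs named below in capitals.

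Il1b, chr2:129371140-129371389, reverse strand: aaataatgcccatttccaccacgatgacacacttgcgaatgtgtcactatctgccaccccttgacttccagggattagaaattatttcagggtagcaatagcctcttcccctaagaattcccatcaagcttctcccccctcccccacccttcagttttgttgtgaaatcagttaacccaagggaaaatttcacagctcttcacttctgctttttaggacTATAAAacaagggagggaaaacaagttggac
Il1a, chr2:129309973-129310222, reverse strand: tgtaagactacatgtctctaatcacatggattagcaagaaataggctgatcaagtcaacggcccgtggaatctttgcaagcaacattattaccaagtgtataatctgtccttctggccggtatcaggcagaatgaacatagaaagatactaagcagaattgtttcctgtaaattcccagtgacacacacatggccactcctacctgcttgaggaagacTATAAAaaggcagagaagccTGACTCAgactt
Nlrp3, chr11:59541319-59541568, forward strand: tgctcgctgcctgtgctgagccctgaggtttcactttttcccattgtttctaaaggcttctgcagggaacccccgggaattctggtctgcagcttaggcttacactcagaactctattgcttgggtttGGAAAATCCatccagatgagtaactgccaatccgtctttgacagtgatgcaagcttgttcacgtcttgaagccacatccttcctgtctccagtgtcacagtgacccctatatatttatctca
Casp4, chr9:5308599-5308848, forward strand: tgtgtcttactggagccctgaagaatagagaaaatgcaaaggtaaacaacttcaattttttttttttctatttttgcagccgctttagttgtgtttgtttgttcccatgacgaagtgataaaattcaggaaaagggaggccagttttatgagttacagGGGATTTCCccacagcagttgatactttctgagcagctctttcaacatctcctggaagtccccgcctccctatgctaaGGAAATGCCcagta
Pycard, chr7:127993868-127994117, reverse strand: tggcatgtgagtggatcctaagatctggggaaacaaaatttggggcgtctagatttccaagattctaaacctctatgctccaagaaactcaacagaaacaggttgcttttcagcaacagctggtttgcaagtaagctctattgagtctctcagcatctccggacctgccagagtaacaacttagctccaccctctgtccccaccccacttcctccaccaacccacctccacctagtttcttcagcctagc
Il1rap, chr16:26581455-26581704, forward strand: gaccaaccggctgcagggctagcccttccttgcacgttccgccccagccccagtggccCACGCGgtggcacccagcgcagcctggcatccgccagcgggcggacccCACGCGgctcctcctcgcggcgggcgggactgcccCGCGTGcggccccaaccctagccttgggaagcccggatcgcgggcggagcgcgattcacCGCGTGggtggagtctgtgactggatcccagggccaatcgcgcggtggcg

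The motifs were searched on both strands in these 250-base windows: a kB sequence of the NF-kB family, GGNNTTTCC, the TATA sequence TATAAA, the AP-1 sequence TGANTCA, the N-box CACNAG, the E-box CACGTG and the class C sequence CACGCG. The last 3 are sequences that HES and HEY proteins are known to bind. All 10 genes had an entry, 14 starts in all, since Il1rn, Nlrp3 and Casp4 have several. Over all 32851 RefSeq windows of the same length, 4.93% held the kB sequence, 12.4% TATA, 6.75% AP-1, 36.7% the N-box, 6.02% the E-box and 7.62% class C. A match is a run of letters and not a shown binding site, and its absence says only that the letters are not in the window.

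Nlrp3 and Casp4 held kB matches before every start listed, 1 match before each of the 2 Nlrp3 starts and 2 before each of the 2 Casp4 starts. The windows of the 2 Casp4 starts overlap, and their matches are the same 2 sites, beginning 92 and 14 bases before the first start and 103 and 25 before the other. Il1a and Il1b each held TATA close to the start, beginning 32 and 31 bases before it, and Il1a also held AP-1. Neither had a kB match in the window. These motifs were not confined to the 4 genes higher with LPS in both genotypes. Il1rn held 1 kB match before start 3 and 1 AP-1 match before start 1. Il18 held TATA on the reverse strand, 175 to 170 bases before its start. The windows of Il1a, Il1b, Nlrp3 and Casp4 held none of the 3 HES and HEY sequences. Il1rap held 4 class C matches, Il18bp 2 N-boxes and Casp1 1 E-box, and Pycard held none of the 6 motifs.

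**Figure D1:**
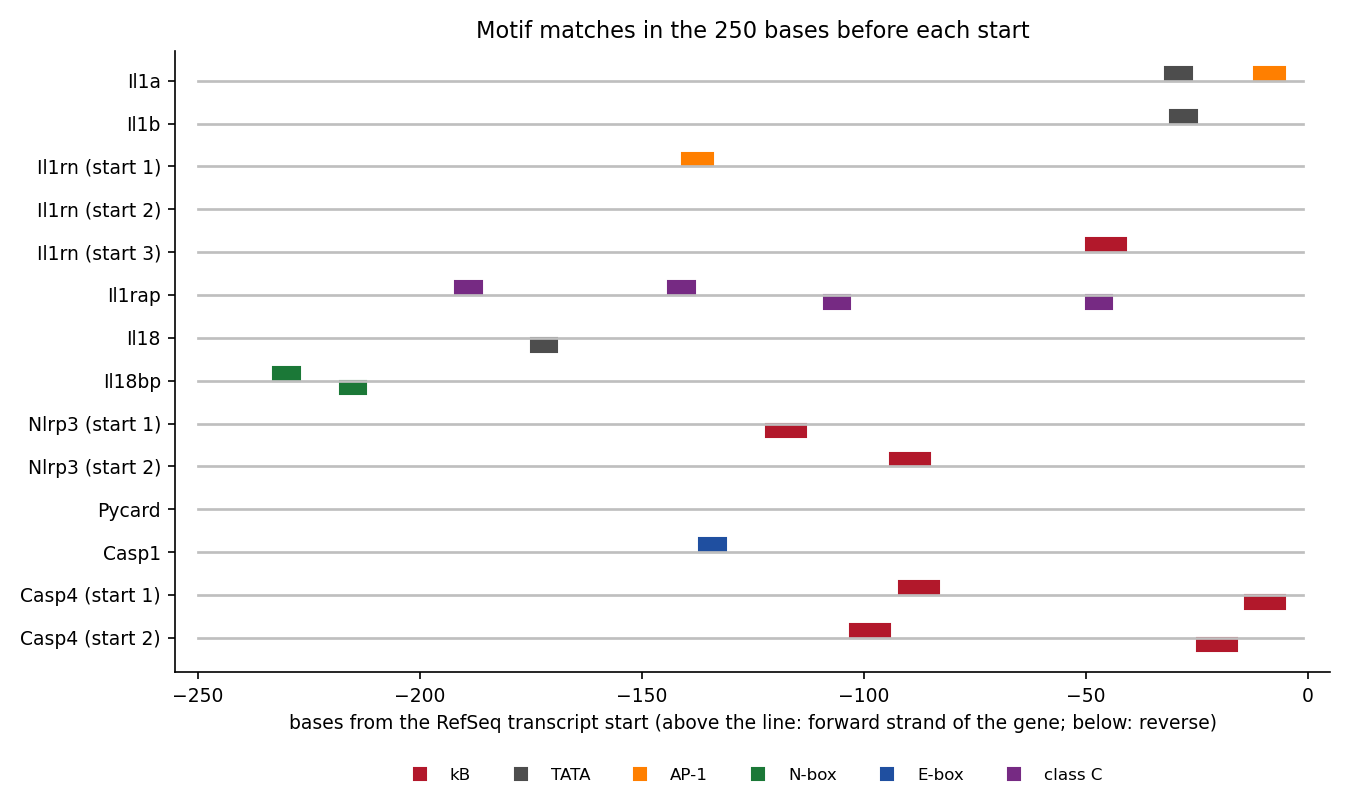
Matches to 6 motifs in the 250 bases before each RefSeq start of the 10 genes; the x axis gives bases from the start, boxes above a line are on the gene's forward strand and boxes below it on the reverse. Casp4 and Nlrp3 have kB matches before every start (the same sites for both Casp4 starts), Il1rap has 4 class C matches, and Pycard has none.

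Across the 4 arrays the mean after trimming 2% at either end was 500.0 units, and the medians were 50.8 in DKO cells with LPS, 51.0 in untreated DKO cells, 50.9 in WT cells with LPS and 59.1 in untreated WT cells. Values under the pooled median of 52.9 units were set to that floor, so a difference with 1 value under it is a bound. A gene is read by its brightest probe set and called higher or lower at 2-fold or more. The ratios of 3′ to 5′ control probe sets, which watch RNA quality, were 0.840 to 0.877 for Gapdh and 1.01 to 1.11 for Actb. Of the deleted genes, Hes1 gave 5.80 and 2.14 units in DKO cells with and without LPS, against 26.7 and 45.4 in WT cells, all under the floor. Hey1 gave 10.2 and 9.17 units in DKO cells with and without LPS, against 17.3 and 57.2 in WT cells, so that untreated WT cells alone passed the floor and the knockout could not be checked closely. The numbers of genes called depend on the scaling. With LPS in DKO cells 524 genes were called higher and 536 lower, and 612 and 401 after loess. With LPS in WT cells they were 386 and 392, and 520 and 194 when the array medians were made equal, 428 and 255 by quantile normalization and 449 and 219 by loess. Setting the medians equal also moved the median log2 difference of all genes there from -0.086 to 0.12. Without LPS, 53 were higher and 112 lower in DKO than in WT cells, against 97 and 43 with equal medians, 66 and 70 by quantiles and 68 and 71 by loess.

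The label of macrophage was checked on 10 marker genes. All were above the floor on both DKO arrays and 9 on both WT arrays, where Cd163 was under it. The measured markers of dendritic cells, T and NK cells, B cells, mast cells and fibroblasts were under the floor on every array. Of 9 neutrophil markers S100a8 and Mmp8 alone were above it, and the list summed to 1060 and 1453 units in DKO cells with and without LPS, against 1748 and 2198 in WT cells. The 4 progenitor markers summed to 478 and 693 units in DKO cells with and without LPS, against 858 and 1241 in WT cells, led by Cd34. Both sums were lower in DKO cells, and their part in the genotype differences below was not tested. The 10 macrophage markers summed to 130711 and 104866 units in DKO cells with and without LPS, against 121925 and 83464 in WT cells.

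Both interleukin-1 cytokine genes, Nlrp3 and Casp4 were higher with LPS by more than 2-fold in both genotypes, while Il18, Casp1, Pycard, Il1rap and Il18bp stayed short of it. In DKO cells 5 of the 10 genes were higher, the fifth being Il1rn, and 0 lower, where 4.66% of 11241 genes were higher and 4.77% lower. In WT cells 4 of 10 were higher and 0 lower, where 3.36% of 11491 genes were higher and 3.41% lower. The median of the 10 log2 differences was 0.95 in DKO and 0.64 in WT cells, with bounds taken at their bound, against -0.10 and -0.086 over all genes. Genes of this kind are known targets of LPS, so the choice of members favours them.

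Il1b, which encodes the precursor of interleukin 1 beta, gave 7559 units in DKO cells with LPS, 47.4 in untreated DKO cells, 3718 in WT cells with LPS and 51.6 in untreated WT cells (probe set 1449399_a_at). Both LPS arrays were far above both untreated ones, which lay just under the floor. LPS therefore gave at least 143-fold in DKO cells and at least 70.3-fold in WT cells. As bounds set by the floor, they have no exact rank among genes.

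Il1a encodes interleukin 1 alpha, which is active without cleavage by caspase-1. It gave 549 units in DKO cells with LPS, 1.98 in untreated DKO cells, 296 in WT cells with LPS and 18.2 in untreated WT cells (1421473_at). The untreated values are deep under the floor and have no order between them. LPS gave at least 10.4-fold in DKO cells and at least 5.60-fold in WT cells, and these bounds move with the floor: with the floor at the 65th percentile the bound in WT cells was 1.76-fold, short of 2-fold.

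Nlrp3, the sensor gene of the best studied inflammasome, gave 13989 units in DKO cells with LPS, 577 in untreated DKO cells, 10634 in WT cells with LPS and 620 in untreated WT cells (1425412_at). The arrays formed a high pair with LPS and a low pair without. The LPS difference was 24.3-fold in DKO cells and 17.1-fold in WT cells, above 99.8% of genes in both when bounds are taken at their bound.

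Casp4, the gene of the mouse protease also called caspase-11, gave 5107 units in DKO cells with LPS, 794 in untreated DKO cells, 4117 in WT cells with LPS and 936 in untreated WT cells (1449591_at). LPS gave 6.43-fold in DKO cells and 4.40-fold in WT cells. Its chromosomal neighbour Casp1, with no measured gene between them, gave 5955 units in DKO cells with LPS, 3898 in untreated DKO cells, 5063 in WT cells with LPS and 3761 in untreated WT cells (1449265_at). Casp1 was 1.53-fold higher with LPS in DKO cells and 1.35-fold in WT cells, both short of 2-fold but above 91.5% and 89.4% of genes. The log2 LPS effect of Casp4 was 2.68 in DKO and 2.14 in WT cells, and that of Casp1 0.61 and 0.43.

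Il1rn, the gene of the receptor antagonist, had 3 probe sets, each above the floor in every culture. The brightest (1451798_at) gave 1594 units in DKO cells with LPS, 653 in untreated DKO cells, 1742 in WT cells with LPS and 964 in untreated WT cells. In DKO cells the LPS differences of the 3 probe sets were 2.44-fold, 2.07-fold and 1.73-fold, and in WT cells 1.81-fold, 1.62-fold and 1.53-fold. All 3 were higher with LPS in both genotypes, and 2 of them passed 2-fold in DKO cells and 0 in WT cells. With array medians set equal the brightest probe set reached 2.10-fold in WT cells.

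Il18, the gene of interleukin 18, differed little between arrays, with 1190 units in DKO cells with LPS, 1033 in untreated DKO cells, 958 in WT cells with LPS and 884 in untreated WT cells (1417932_at). LPS gave 1.15-fold in DKO cells and 1.08-fold in WT cells. Il18bp, whose product traps interleukin 18, gave 165 units in DKO cells with LPS, 256 in untreated DKO cells, 132 in WT cells with LPS and 158 in untreated WT cells (1450424_a_at). It was 1.55-fold lower with LPS in DKO cells and 1.19-fold lower in WT cells, so neither member of this cytokine and inhibitor pair passed 2-fold.

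Pycard, the adaptor gene, gave 3719 units in DKO cells with LPS, 5206 in untreated DKO cells, 4718 in WT cells with LPS and 4639 in untreated WT cells (1417346_at). Its reading was 1.40-fold lower with LPS in DKO cells and 1.02-fold higher in WT cells. The sign of the WT value changed under 3 alternative settings, and that of the DKO value under 0 of those run. A further Pycard probe set (1417347_at) read 66.3 units in untreated DKO cells and 55.6 in untreated WT cells and lay under the floor on both LPS arrays, and the last (1446926_at) was under it on all arrays.

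Il1rap was read by 5 probe sets, of which 2 were under the floor throughout. The brightest (1421844_at) gave 242 units in DKO cells with LPS, 170 in untreated DKO cells, 212 in WT cells with LPS and 177 in untreated WT cells. It was 1.42-fold higher with LPS in DKO cells and 1.20-fold higher in WT cells. The other 2 were dim and read the opposite way. Over the arrays 1449585_at gave 64.7 to 83.1 units, and 1421843_at 40.9 to 71.3 units, under the floor in WT cells with LPS. With LPS, 1449585_at was 1.15-fold lower in DKO cells and 1.01-fold lower in WT cells, and 1421843_at was 1.10-fold lower in DKO cells and at least 1.09-fold lower in WT cells. The direction for Il1rap depends on which probe set is read.

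**Figure D2:**
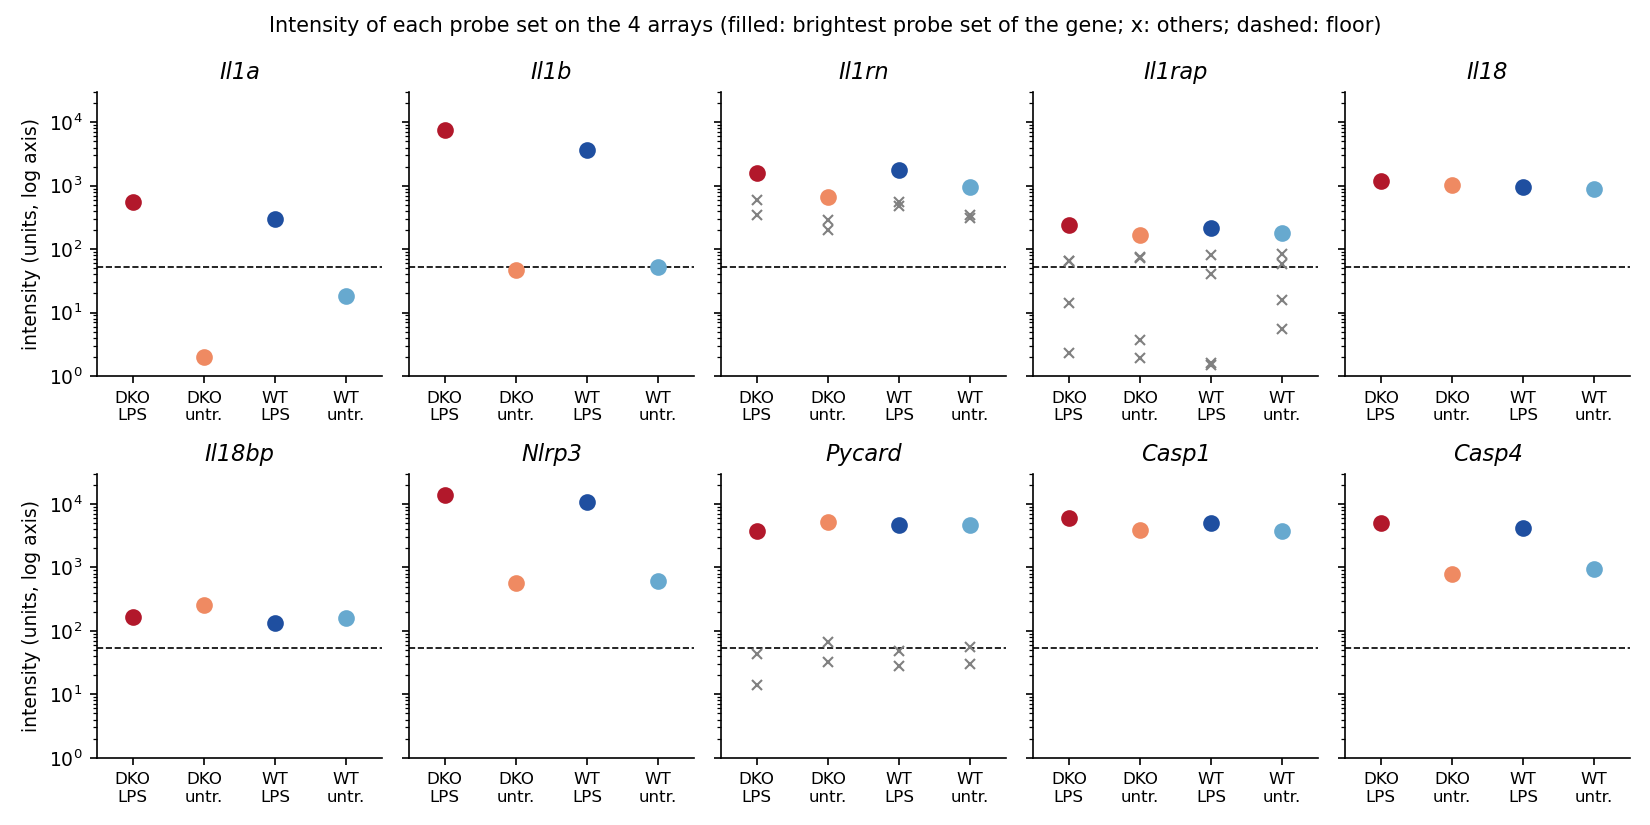
Intensity (log axis) of every probe set of the 10 genes on the 4 arrays; filled points are the brightest probe set of a gene, crosses the others, and the dashed line the floor of 52.9 units. Il1a, Il1b, Nlrp3 and Casp4 form a high pair with LPS and a low pair without, and the brightest probe sets of Il18, Casp1, Il18bp and Pycard stay within 2-fold.

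**Figure D3:**
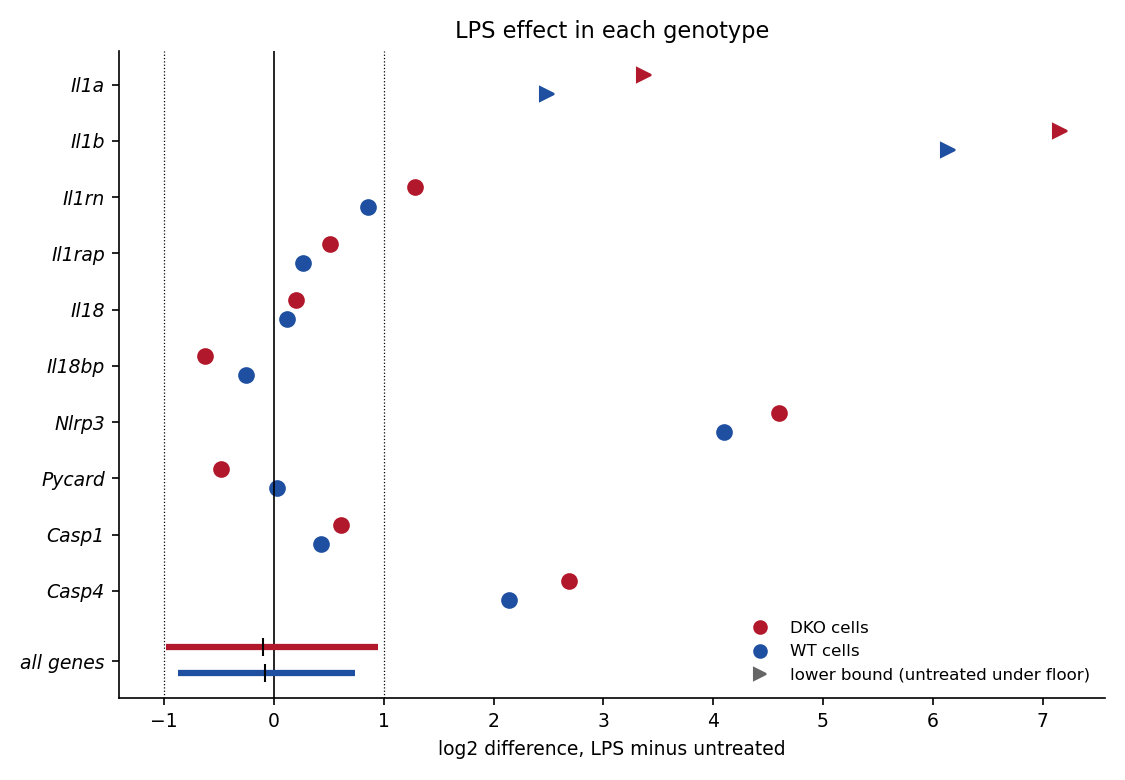
Log2 LPS difference of each gene in DKO cells (red) and WT cells (blue), with triangles for lower bounds; bars give the central 90% of all genes with the median marked, and dotted lines 2-fold. Il1b has the highest bounds, 7.16 in DKO and 6.13 in WT cells, and Il18bp lies at -0.63 and -0.26.

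Under LPS, 8 of the 10 genes read higher in DKO than in WT cells by their brightest probe sets. Some did so by little, such as Il1rap at 0.19, and the share of all genes reading higher was not counted. Only Il1b passed 2-fold. It was 2.03-fold higher, 7559 against 3718 units, and Il1a followed at 1.85-fold, 549 against 296 units. Thus 1 gene of 10 was higher and 0 lower, where 0.845% of 11236 genes were higher and 0.934% lower. The median of the 10 differences was 0.31 against -0.040 over all genes, with the central 90% of genes between -0.59 and 0.52. In bulk RNA, fewer responding cells and less RNA per cell cannot be told apart.

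Il1b lies at the edge of the threshold. Its difference ranged from 1.97-fold to 2.08-fold over the scalings and with an offset of 16 units in place of the floor. It was short of 2-fold after quantile normalization. Il1a ranged from 1.81-fold to 1.88-fold. The other floors and the probe set rules could not move either value. Each gene has 1 probe set, which no rule left out, and its LPS readings lie above those floors. Il1b and Il1a both stood outside the central 90% of genes, above 99.2% and 98.8% of them. In this comparison the log2 differences given by the 2 brightest probe sets of a gene lay apart by a median of 0.18. The 90th percentile was 0.55, over 4709 genes. Both probe sets are read on the same arrays, so this distance holds no spread between cultures or between arrays. It is therefore no measure of the error of a genotype difference, which 1 array per group cannot give. Il1a and Il1b have 1 probe set each, so there is no second reading to set beside theirs.

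The remaining genes were closer together. In DKO against WT cells with LPS, Nlrp3 was 1.32-fold higher (13989 against 10634 units), Il18bp 1.25-fold, Il18 1.24-fold, Casp4 1.24-fold, Casp1 1.18-fold and Il1rap 1.14-fold. Pycard was 1.27-fold lower, 3719 against 4718 units. The dimmer Il1rap probe sets disagreed: 1449585_at was 1.27-fold lower (64.7 against 82.1 units), and 1421843_at at least 1.22-fold higher (64.5 against 40.9 units, the last under the floor). The 3 Il1rn probe sets disagreed, with log2 differences of -0.13, 0.086 and -0.46 from the brightest on. The antagonist gene thus had no settled direction here. Il1a and Il1b read higher in DKO cells but have no second probe set that could disagree.

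Most other induced genes also read higher in DKO cells. Of the 338 genes that were higher with LPS in both genotypes, 269 read higher in DKO than in WT cells with LPS, and their median log2 difference was 0.26. In that set Il1b ranked 16th, Il1a 29th, Nlrp3 114th and Casp4 144th from the top. So Nlrp3 (0.40) and Casp4 (0.31) lay above the median of the induced genes, and Il1b (1.02) near their 95th percentile. The 338 genes were chosen by LPS effects that use the same LPS arrays as this genotype comparison, so the count and the ranks are a description. Over all genes the median of this comparison was -0.040.

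Without LPS none of the 8 above the floor passed 2-fold: 0 were higher and 0 lower, where 0.466% of 11380 genes were higher and 0.984% lower. Il18bp was 1.62-fold higher in untreated DKO than in untreated WT cells, 256 against 158 units, above 98.5% of genes. Il1rn was 1.48-fold lower by its brightest probe set, 653 against 964 units, and 1.21-fold and 1.56-fold lower by the others. All 3 Il1rn probe sets read lower in untreated DKO cells. Il1a and Il1b were under the floor in both genotypes and have no difference at rest.

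For the rest, untreated DKO against untreated WT cells gave 1.17-fold higher for Il18, 1.12-fold for Pycard and 1.04-fold for Casp1. Casp4 was 1.18-fold lower, Nlrp3 1.08-fold lower and Il1rap 1.04-fold lower. With array medians set equal, the median of all genes in this comparison moved from -0.017 to 0.19, and Nlrp3 and Il1rap then read higher, at 0.11 and 0.15, though both below that median. Il1rap also read higher by quantiles (0.031), by loess (0.042) and as the median of its probe sets (0.30). Each of these lay above the median gene of its setting. The 0.30 is the reading of the dim 1421843_at alone, and the dim 1449585_at read lower, at -0.16. The untreated direction of Il1rap was therefore not settled.

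**Figure D4:**
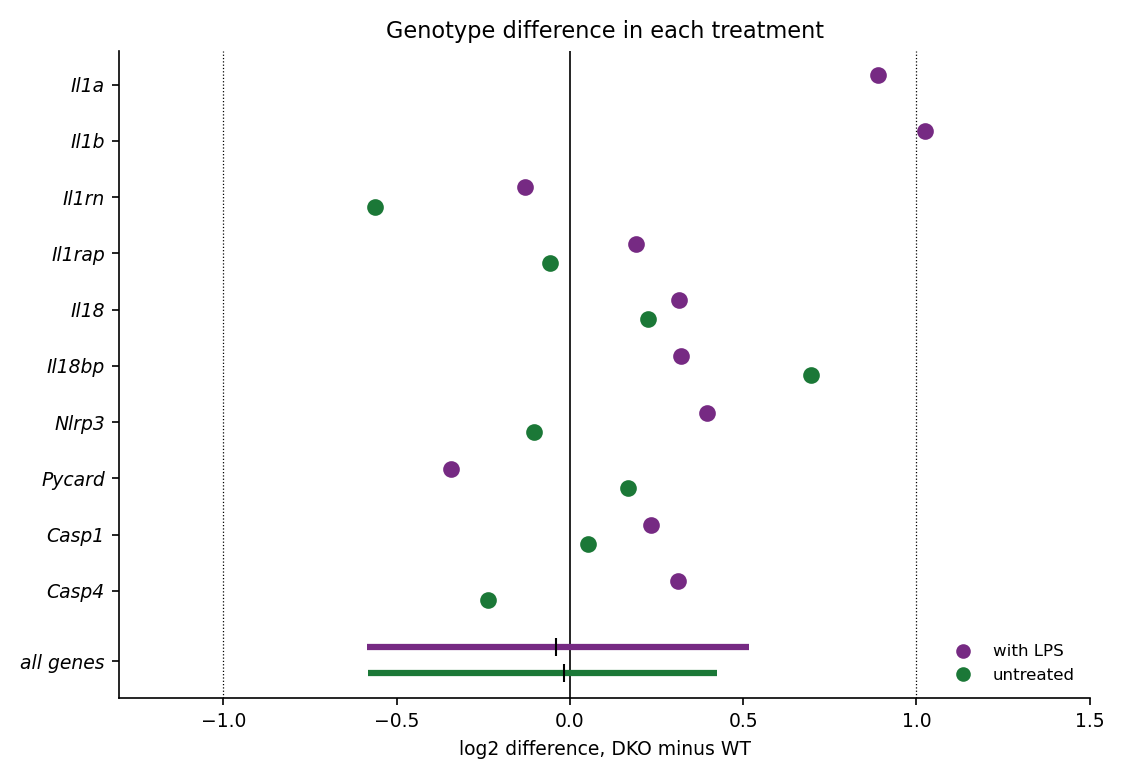
Log2 difference of DKO minus WT cells for each gene, with LPS (purple) and untreated (green); bars give the central 90% of all genes with the median marked, and dotted lines 2-fold. With LPS, Il1b (1.02) and Il1a (0.89) lie outside the bar, and untreated, Il18bp (0.69) does; Il1a and Il1b have no untreated value.

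Whether LPS acted more strongly in DKO cells was read as the difference of the LPS effects, DKO minus WT, on the log2 scale. None of the 8 genes above the floor on all arrays reached 2-fold: 0 were larger and 0 smaller, where 1.83% of 10615 genes were larger and 0.904% smaller. Those shares turned to 114 larger and 212 smaller genes with array medians set equal, against 194 and 96, and were 140 and 118 by quantiles and 143 and 119 by loess. The differences of effects were 0.55 for Casp4, 0.50 for Nlrp3, 0.43 for Il1rn, 0.25 for Il1rap, 0.18 for Casp1 and 0.090 for Il18. They were -0.37 for Il18bp and -0.51 for Pycard.

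In these differences Casp4 and Nlrp3 stood above 92.7% and 91.6% of genes, and Pycard below all but 6.91%. With array medians set equal the median of all genes moved from -0.042 to -0.25, Casp4 to 0.34 and Nlrp3 to 0.29, still above it, and Pycard to -0.72. Casp1, Il18 and Il1rap changed sign in at least 1 alternative. For Il1a and Il1b the difference has no size, since both untreated values lie under the floor.

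Other genes of the pathway were read from 6 lists. Over all genes 4.66% were higher and 4.77% lower with LPS in DKO cells, and 3.36% and 3.41% in WT cells. Between genotypes 0.845% were higher and 0.934% lower in DKO cells with LPS, and 0.466% and 0.984% untreated. In lists this short, none past 2-fold between genotypes is therefore the usual count. Among 12 measured genes of the signalling chain that IL-1 and Toll-like receptors share, 3 were higher with LPS in both genotypes and 0 lower. Irak3, which encodes an inhibitory kinase-like protein, was 3.57-fold higher in DKO and 2.73-fold in WT cells, the kinase gene Irak2 2.74-fold and 2.20-fold, and the adaptor gene Myd88 2.02-fold and 2.09-fold. None of the 12 passed 2-fold between the genotypes, and the widest difference was that of Irak3 with LPS, 0.52.

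Of a list of other inflammasome sensors and related receptors 9 were measured. Mefv, the gene of pyrin, gave 475 units in DKO cells with LPS, 80.0 in untreated DKO cells, 782 in WT cells with LPS and 116 in untreated WT cells. It was 5.93-fold higher with LPS in DKO cells and 6.71-fold in WT cells. Nod1, a receptor for bacterial peptidoglycan, was 2.54-fold higher in DKO and 1.84-fold in WT cells. In total LPS gave higher readings past 2-fold for 2 of 8 genes of this list in DKO cells and 1 of 7 in WT cells, and lower ones for 0. Between genotypes none passed 2-fold. With LPS the widest log2 difference was that of Mefv, -0.72, opposite in sign to the 0.40 of Nlrp3, and untreated that of Naip5, a sensor gene for flagellin, 0.71.

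Among 14 partners and effectors Ninj1, which ruptures the membrane of dying cells, was 2.15-fold higher with LPS in DKO and 2.07-fold in WT cells. P2rx7, the ATP receptor gene upstream of NLRP3, was lower with LPS: 546 against 1402 units in DKO cells, or 2.57-fold, and 523 against 952 units in WT cells, or 1.82-fold. The gasdermin D gene Gsdmd gave 2747 and 2146 units in DKO cells with and without LPS, against 2756 and 2166 in WT cells, so neither the LPS nor the genotype differences came near 2-fold. Of the other effectors, Gsdme differed most between genotypes with LPS, at -0.65.

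Receptors were low. Of 8 other receptor genes of the family 4 lay above the floor: Il1r2, the decoy receptor, Il1rl2, Il18rap and Sigirr, an inhibitory receptor. None passed 2-fold in any comparison, and the largest LPS difference was that of Sigirr, log2 -0.75 in DKO and -0.87 in WT cells. The signalling receptor genes Il1r1 and Il18r1 were under the floor on all arrays. In DKO against WT cells the median of the 4 was -0.35 with LPS and -0.41 without, against -0.040 and -0.017 over all genes, and the widest was Il1rl2 untreated at -0.69. Of the other ligands Il33 was under the floor and Il1f10 just above it on 3 arrays, with at most 86.9 units.

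Of the genes of proteases and export 5 lay above the floor and none passed 2-fold in any comparison. The calpain gene Capn2, whose product can process interleukin 1 alpha, had the widest genotype difference with LPS, -0.55, at 3067 units in DKO and 4499 in WT cells. The neutrophil protease genes Elane, Ctsg and Prtn3, whose products can cleave interleukin-1 precursors, were under the floor on all arrays.

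**Figure D5:**
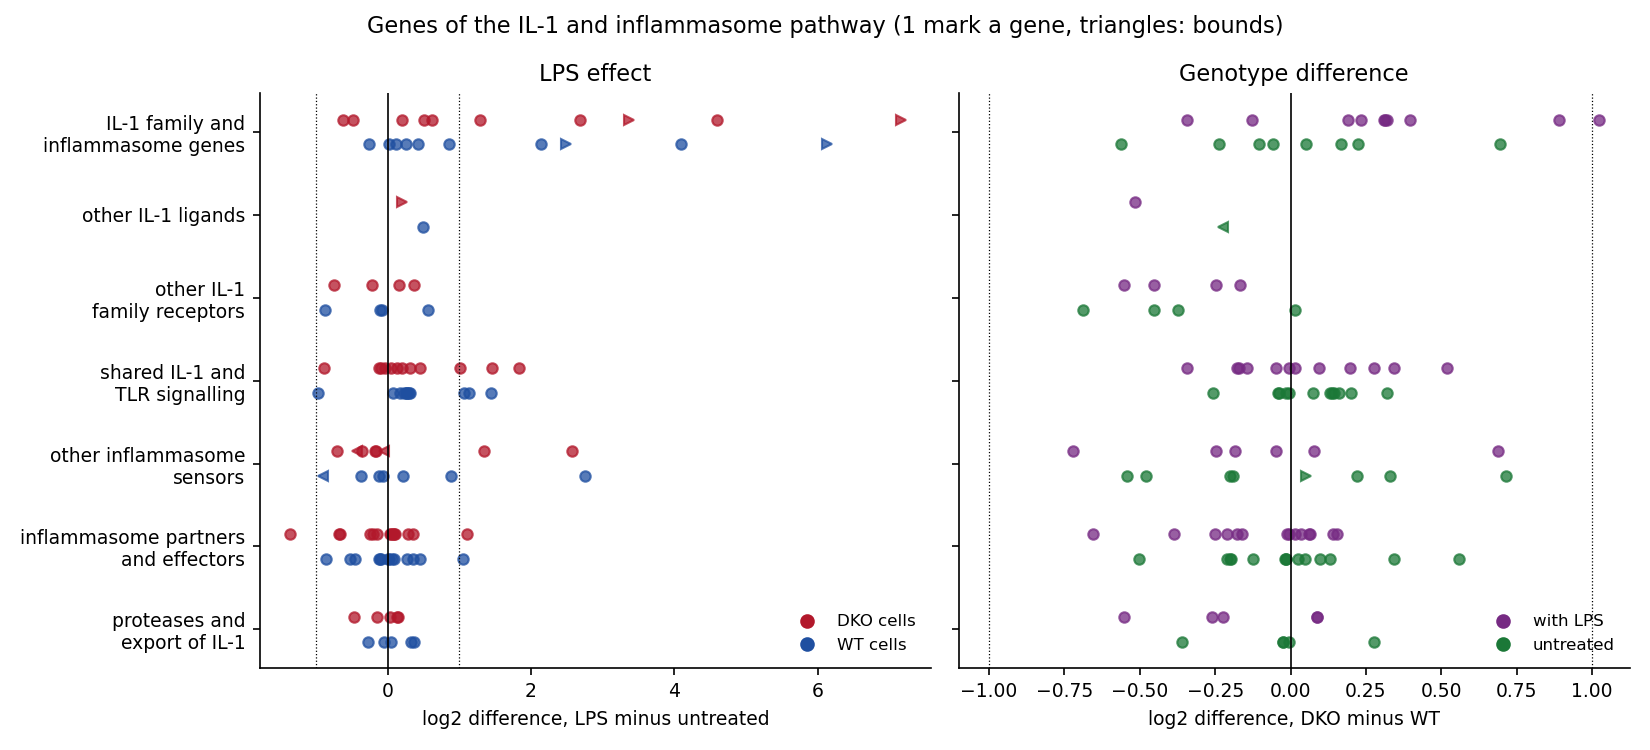
Log2 differences of the genes of 7 lists, by LPS (left; DKO red, WT blue) and by genotype (right; with LPS purple, untreated green), 1 mark a gene, with triangles for bounds and dotted lines at 2-fold. With LPS, Il1b and Nlrp3 reach farthest in both genotypes, and between genotypes only Il1b passes 2-fold.

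The genes most like 3 of the members were found by Euclidean distance over the 4 arrays. It was taken on floored log2 values centred on the gene's mean, among 11074 other genes above the floor on at least 2 arrays. For Il1b they were Ptgs2, the inducible prostaglandin synthase gene (distance 0.61), Tnf (0.67) and Cxcl2 (0.77). Their log2 genotype differences with LPS were 0.65, 0.34 and 0.22, beside the 1.02 of Il1b. For Nlrp3 the nearest were Ch25h, which makes an oxysterol (0.21), Nfkbiz (0.21) and Tnfaip3 (0.24), both known in NF-kB feedback, with LPS differences of 4.49, 4.80 and 4.31 in DKO cells beside 4.60 for Nlrp3. For Il18 they were Vcpip1 (0.027), Tmco3 (0.032) and Serp1 (0.034), and none of them reached 1.25-fold in any comparison. Both untreated Il1b values, and that of Ptgs2 in untreated WT cells, were set to the floor, so the Il1b distances depend on it. With 4 arrays these distances are a description.

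Neighbouring genes were read for genotype differences along the chromosome. Over all genes 0.845% were higher and 0.934% lower in DKO than in WT cells with LPS, and 0.466% and 0.984% untreated. At those shares 0 calls are the usual count among so few neighbours, so whether a whole stretch differed was not tested. Il1a and Il1b are neighbours on chromosome 2 with no measured gene between them. Of the 10 measured genes on either side of Il1b, 12 were above the floor in the genotype comparison with LPS, and 0 were higher and 0 lower by 2-fold. Il1rap lies on chromosome 16 with Hes1, 10 measured genes apart. Of its 20 neighbours 5 were above the floor with LPS and 5 untreated, and none passed 2-fold. Il18bp, the gene with the widest untreated genotype difference, had 1 neighbour past 2-fold on chromosome 7, Folr2, which was higher in DKO than in WT cells both with LPS (of 16 compared) and untreated (of 18). Untreated, Cryab near Il18 was higher in DKO cells (1 of 10 compared), and Mmp13 near Casp1 and Casp4 was lower (1 of 10). The neighbours of Il1rn, Nlrp3 and Pycard held 0 genes past 2-fold in either comparison.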

How the data were processed

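RNA of 4 macrophage cultures was measured on 1 Affymetrix array each. The deposited values are linear intensities, 1 per probe set, judged from their range, since no label gives the unit. The 4 arrays share 1 trimmed mean (500.0 units after trimming 2% at either end), and this scaling of the deposited table was kept. Software, versions and background steps are not given in the sources used here. Probe sets were named through the platform annotation and RefSeq symbols: 34945 of 45101 name 1 gene, 932 several and 9160 none, and 64 are controls.

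Values under 52.9 units, the pooled median, were set to it before log2, and a gene was read by its brightest probe set on average. With 1 array per group no test was run, differences are called at 2-fold, and no depth or error estimate exists. The members and lists were chosen with earlier results of these data known. Pathway genes were named by a rule: all past 2-fold, otherwise the largest. Gsdmd and the genes named as under the floor or as measured receptors were added after their values were seen. The calculation was tested on simulated data. Alternatives covered 3 scalings (limma 3.58.1 in R 4.3.3), 3 floors or offsets, 2 probe set rules and 2 thresholds. Python 3.11.15 with numpy 2.4.6, pandas 2.3.3 and matplotlib 3.10.9 was used.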

Additional observations from a re-analysis of the deposited data

Results flagged for a closer look

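The 4 genes Nlrp3, Casp4, Il1rap and Pycard read in opposite directions between groups, and with 1 array per group none of these differences was tested. Nlrp3 was higher in DKO than in WT cells with LPS (log2 difference 0.40) and lower without it (-0.10), and Casp4 likewise (0.31 with LPS, -0.24 untreated). Il1rap had the same pattern at 0.19 with LPS and -0.059 untreated, but its untreated sign turned under 4 alternatives. They gave 0.15 with equal medians, 0.031 by quantiles, 0.042 by loess and 0.30 as the median of its probe sets. That 0.30 is the reading of the dim 1421843_at alone. The untreated sign of Nlrp3 turned with equal medians (0.11). Pycard had the opposite one, lower in DKO cells with LPS (-0.34) and higher untreated (0.17), and its LPS difference was -0.49 in DKO and 0.024 in WT cells, the last with a sign that turned under 3 alternatives.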

How the results depend on the processing

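Of 100 counts recomputed under 10 alternatives, 88 were equal to the reported ones and 12 were not, of which 7 differed by more than 1.5 times. With LPS in WT cells the 4 higher genes became 5 with equal medians and at a 1.5-fold threshold, and 3 with the floor at the 65th percentile. With LPS in DKO cells the 5 became 6 at 1.5-fold and 4 at 3-fold. With a 1.5-fold threshold 1 gene (Il18bp) was higher in untreated DKO than in untreated WT cells instead of 0, 2 genes (Il1a and Il1b) instead of 1 were higher in DKO than in WT cells with LPS, and 1 (Il18bp) instead of 0 was lower with LPS in DKO cells. At 3-fold, and after quantile normalization, 0 genes were higher in DKO than in WT cells with LPS, with Il1b at 1.97-fold under the quantiles. The LPS effect was larger in DKO cells for 1 gene (Il1b) with the floor at the 35th percentile and for 2 (Il1a and Il1b) with no floor and an offset of 16 units, instead of 0. Of 363 member differences recomputed, 339 moved by less than the median distance between probe sets of a gene and 24 by more. Of all these 15 changed sign, none of them past 2-fold. Part of these recomputations could not differ, so the totals do not measure stability. No member probe set ends in _s_at or _x_at, which 1 rule left out. Genes with 1 probe set have no other reading, bright genes lie above every floor, and a higher threshold cannot change a count of 0. No paired analysis was possible because each group has 1 array. Dim signal limits Il1a and Il1b most, whose untreated values are under the floor.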
